A study of Mus musculus with 8 samples.

Results

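The genes described here make the peroxisome membrane machinery of mouse epididymal fat. They are Pex5 and Pex14 of matrix protein import, Pex3 and Pex19 of membrane assembly, Pex11a of peroxisome growth, and Abcd2, Abcd3 and Pxmp2, which carry substrates across the membrane. They were chosen by name, 8 of the 37417 genes in the deposited table, each found as 1 row. The Atg3 knockout group (KO) holds 4 male C57Bl/6 mice on chow with the genotype Adiponectin-Cre ERT2-Atg3 flox/flox. Wild-type mice (WT) of that strain and sex, also 4 on chow, are the other group, and per the labels the mice were treated with tamoxifen, which activates a Cre-ERT2 fusion. The adiponectin promoter drives Cre in adipocytes, so the blood vessel, immune and stromal cells of the fat pad keep Atg3, and the whole pad was sequenced.

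Peroxisomes are small organelles that shorten very long and branched fatty acids, begin the synthesis of ether lipids and break down hydrogen peroxide. Their matrix enzymes are made in the cytosol and carried in by the receptor Pex5, while membrane proteins are inserted by Pex19 and its anchor Pex3. In mammals, surplus peroxisomes are degraded by autophagy (pexophagy), and Atg3 encodes the enzyme that attaches LC3-family proteins to the autophagosome membrane. The comparison asked whether the messages of these membrane genes differed between KO and WT fat.

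Pex11a lies between a lipid droplet gene and a gene that starts beside it on the opposite strand, so its promoter and that of the lipid droplet gene are shown. Plin1, which encodes the lipid droplet coat protein perilipin 1, starts 10355 bases away on the same strand of chromosome 7. Wdr93, a WD repeat gene, starts 32 bases from Pex11a on the opposite strand. In mice, Pex11a and Plin1 are known to share a response element for PPARs, the nuclear receptors that activate fat metabolism genes. Both sequences are from RefSeq's GRCm38.p6 assembly, minus strand, and run from 250 bases before the annotated start to 50 bases after it. The first is chr7:79743082-79743381 and the second chr7:79732727-79733026. Capitals mark a match to CCGGAAGT, the site of ETS family factors, on the opposite strand at positions -17 to -10 from the Pex11a start.
Pex11a: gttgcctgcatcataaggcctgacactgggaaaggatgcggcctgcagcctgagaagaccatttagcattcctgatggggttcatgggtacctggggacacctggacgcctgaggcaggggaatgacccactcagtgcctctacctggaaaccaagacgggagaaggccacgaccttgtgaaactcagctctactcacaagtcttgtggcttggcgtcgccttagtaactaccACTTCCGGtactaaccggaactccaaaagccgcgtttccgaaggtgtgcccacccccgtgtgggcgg
Plin1: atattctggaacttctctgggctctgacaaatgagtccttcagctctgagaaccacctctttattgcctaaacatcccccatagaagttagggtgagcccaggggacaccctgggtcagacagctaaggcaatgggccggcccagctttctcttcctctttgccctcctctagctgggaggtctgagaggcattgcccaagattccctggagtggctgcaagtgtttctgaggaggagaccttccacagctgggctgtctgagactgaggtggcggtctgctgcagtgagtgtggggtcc
The ETS letters, searched after the sequence had been seen, occur in 3.89% of 32851 mouse promoter windows of this length. The DR1 repeat of PPARs, made of a pair of AGGTCA sites 1 base apart and found in 0.0396% of windows, and the antioxidant response core TGACNNNGC, found in 12.4%, were searched on both strands and match in neither window. Nor do they match in the windows of Pex3, Pex5, Pex14 or Abcd3. A promoter was matched for 5 of the 8 genes, all but Pex19, Abcd2 and Pxmp2, and a window without a match says only that these letters are not in it.

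The libraries held 12952190 to 21688464 counted reads in KO and 10986375 to 17128811 in WT. Atg3 averaged 30.3 ± 1.84 CPM in KO and 50.2 ± 4.34 CPM in WT fat (SD, n = 4 each), with no overlap between the genotypes, and on the sides their labels give (log2 fold change -0.73, adjusted p = 0.0168 by edgeR). CPM are read counts scaled to a common library size. The 11 adipocyte markers summed to 36364 to 44945 CPM in KO and 40393 to 52727 CPM in WT libraries, and Ucp1, the defining gene of brown fat, stayed under 1 CPM in all 8. The 12 duct epithelium markers, such as Epcam and Foxj1, summed to 34.2, 491, 499 and 44.9 CPM in KO libraries 1 to 4, against 8.86 to 20.8 CPM in WT libraries. The 8 hepatocyte markers summed to 55.6 CPM in KO 1, 88.4 CPM in KO 4 and at most 18.5 CPM in the other KO libraries, against 12.6 to 28.2 CPM in WT libraries. The 6 endothelial markers summed to 1132 to 1309 CPM in KO and 1342 to 1613 CPM in WT libraries, and the 8 macrophage markers to 1546 to 2064 CPM in KO and 1385 to 1987 CPM in WT libraries. Mitochondrial genes took 5.03 to 6.08% of reads in KO and 3.05 to 4.93% in WT libraries.

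None of the 8 genes passed an adjusted p of 0.05 between the genotypes (0 of 8, edgeR's quasi-likelihood test over 14800 genes, of which 0.405% passed). At an unadjusted p under 0.05 there was 1 of 8, Abcd2, against 16.2% of all genes tested. That count was 0 of 8 without KO 2, KO 3, KO 4, WT 3 or WT 4, and 2 of 8, with Pxmp2, without WT 1. DESeq2, which called 5.47% of genes, also called 0 of 8, as did limma-voom. The KO and WT libraries overlapped for each of the 8, whereas they did not overlap for 8.86% of all genes. The log2 fold changes (KO over WT) ran from -0.39 to 0.16 with a median of -0.01, the same as the median over all genes tested. Each gene had at least 349 reads in its lowest library, where counting error alone is 5.35%. The SD over the libraries of a genotype ran from 3.82% of the mean (Pex14 in KO) to 25.5% (Pxmp2 in WT). For Pex14 the lowest of all 8 libraries, a WT library, had a counting error of 4.18%, and that of its KO libraries alone was not computed.

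**Figure D1:**
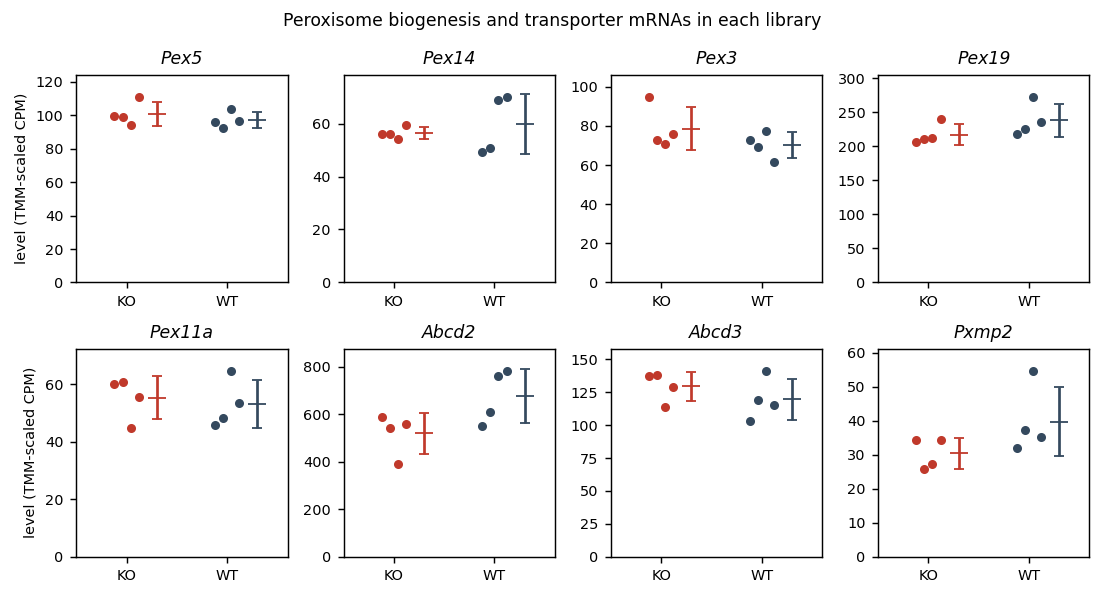
TMM-scaled CPM of each gene by genotype, with 1 point for each of the 4 KO (red) and 4 WT (dark blue) libraries and the mean ± SD beside them. The genotypes overlap in every panel; Abcd2 and Pxmp2 have lower KO means (519.7 and 30.4 CPM) than WT means (676 and 39.8 CPM).

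Pex5, the shuttling receptor that recognises the C-terminal signal of matrix enzymes, had the log2 fold change nearest to 0. It had 99.3, 99.2, 94.2 and 111 CPM in KO libraries 1 to 4, against 95.8, 92.5, 104 and 96.8 CPM in WT libraries 1 to 4. The highest library was KO 4 and the lowest WT 2, and 3 of the 4 KO values lay within the WT range. This gave a log2 fold change of 0.05 (SE 0.075, adjusted p = 0.776), with a 95% interval from 0.922-fold to 1.17-fold. Pex5 (ENSMUSG00000005069) spans chr6:124396816-124415067 on the minus strand of build mm10, and no other gene model overlaps it.

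Pex14, the membrane docking site at which Pex5 delivers its cargo, varied more in WT than in KO fat. Its level was 56.2, 56.0, 54.3 and 59.5 CPM in KO libraries 1 to 4, and 49.1, 50.8, 68.9 and 70.1 CPM in WT libraries 1 to 4. The KO values all lay between the lower and the upper pair of WT values. The resulting log2 fold change was -0.08 (SE 0.13, adjusted p = 0.802), with an interval from 0.777-fold to 1.15-fold. Pex14 (ENSMUSG00000028975) spans chr4:148960535-149099876 on the minus strand, where 2 opposite-strand models overlap it with at most 6 reads in any library.

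Pex3, the membrane anchor that recruits Pex19, was highest in KO library 1. It had 94.9, 73.0, 71.0 and 75.9 CPM in KO libraries 1 to 4, against 72.8, 69.4, 77.6 and 61.7 CPM in WT libraries 1 to 4. Apart from KO 1 the KO values lay inside the WT range. KO over WT, the log2 fold change was 0.16 (SE 0.11, adjusted p = 0.519), with an interval from 0.939-fold to 1.33-fold, and without KO 1 it was 0.06. Pex3 (ENSMUSG00000019809) spans chr10:13523842-13553142 on the minus strand. Its first 249 bases overlap Adat2, a tRNA deaminase gene on the opposite strand, and the sources used here do not say whether reads were counted by strand. Adat2 held 43 to 97 reads per library, against at least 847 for Pex3.

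Pex19, the chaperone that binds new membrane proteins and hands them to Pex3, was the most abundant peroxin among these genes. Its level was 207, 210.4, 212 and 239.7 CPM in KO libraries 1 to 4, and 219, 225, 273 and 236 CPM in WT libraries 1 to 4. KO libraries 1 to 3 lay below all WT libraries, and KO 4 lay above 3 of them. On the log2 scale the fold change was -0.13 (SE 0.094, adjusted p = 0.534), with an interval from 0.788-fold to 1.06-fold. Pex19 (ENSMUSG00000003464) spans chr1:172126755-172136493 on the plus strand.

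Pex11a, a membrane protein that helps peroxisomes elongate and divide, had 60.1, 60.8, 44.9 and 55.5 CPM in KO libraries 1 to 4. In WT libraries 1 to 4 it had 45.9, 48.1, 64.5 and 53.3 CPM. The lowest library was KO 3 and the highest WT 3, and the genotypes covered nearly the same range. The log2 fold change was 0.06 (SE 0.13, adjusted p = 0.854), with an interval from 0.850-fold to 1.28-fold. Pex11a (ENSMUSG00000030545) spans chr7:79735957-79743131 on the minus strand.

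Abcd2, an ATP-driven transporter that imports very long chain acyl-CoA and is abundant in mouse fat, had the highest level of the 8 genes. It had 587, 541, 391 and 559.9 CPM in KO libraries 1 to 4, against 552, 609, 761 and 782 CPM in WT libraries 1 to 4. KO 1 and KO 4 stood just above WT 1, and the other 2 KO libraries below all WT libraries. The log2 fold change was -0.38 (SE 0.16, adjusted p = 0.295), with an interval from 0.596-fold to 0.992-fold before adjustment for the number of genes. Abcd2 (ENSMUSG00000055782) spans chr15:91145884-91191807 on the minus strand. Adipocyte markers had a median log2 fold change of -0.31, and 9 of 11 were negative, against 7758 of all 14800 genes tested. Endothelial markers had a median of -0.33 (6 of 6 negative), fibroblast or preadipocyte markers -0.14 (4 of 6) and macrophage markers 0.15 (2 of 8). None of these markers was called by edgeR. The part of cell content in the Abcd2 difference was not tested, and in whole fat fewer adipocytes and less RNA per adipocyte cannot be told apart.

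Abcd3, also known as PMP70 and a transporter of long and branched chain acyl-CoA and bile acid precursors, did not share the sign of Abcd2. It had 137, 138, 114 and 129 CPM in KO libraries 1 to 4, against 103, 119, 141 and 115 CPM in WT libraries 1 to 4. WT 3 was the highest of all 8 libraries, and the other 3 WT libraries lay below KO 1, KO 2 and KO 4. Its log2 fold change was 0.12 (SE 0.11, adjusted p = 0.636), with an interval from 0.917-fold to 1.28-fold. Abcd3 (ENSMUSG00000028127) spans chr3:121758909-121815302 on the minus strand. In the list of other membrane proteins Acbd4, a peroxisomal tether to the endoplasmic reticulum, had a log2 fold change of -0.20 (adjusted p = 0.384) and Mpv17, a relative of Pxmp2, -0.16 (adjusted p = 0.420).

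Pxmp2, a channel of the peroxisomal membrane for small solutes, had 34.2, 25.9, 27.2 and 34.2 CPM in KO libraries 1 to 4. In WT libraries 1 to 4 it had 32.0, 37.3, 54.6 and 35.1 CPM. KO 2 and KO 3 lay below all WT libraries, while KO 1 and KO 4 lay between WT 1 and WT 4. Its log2 fold change was -0.39 (SE 0.18, adjusted p = 0.327), with an interval from 0.580-fold to 1.01-fold. Pxmp2 (ENSMUSG00000029499) spans chr5:110274282-110286186 on the minus strand. Pole, a DNA polymerase subunit gene that starts 120 bases away on the opposite strand, had a log2 fold change of 0.02 (adjusted p = 0.970). KO 2 and KO 3 are also the libraries with the most duct epithelium RNA, whose part in these values was not tested. Without both of them the log2 fold change was -0.20 for Pxmp2 and -0.22 for Abcd2, and without KO 1 and KO 4 it was -0.60 and -0.55. Leaving out WT 3 alone, the highest library for Pxmp2, gave -0.19 for Pxmp2 and -0.31 for Abcd2.

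**Figure D2:**
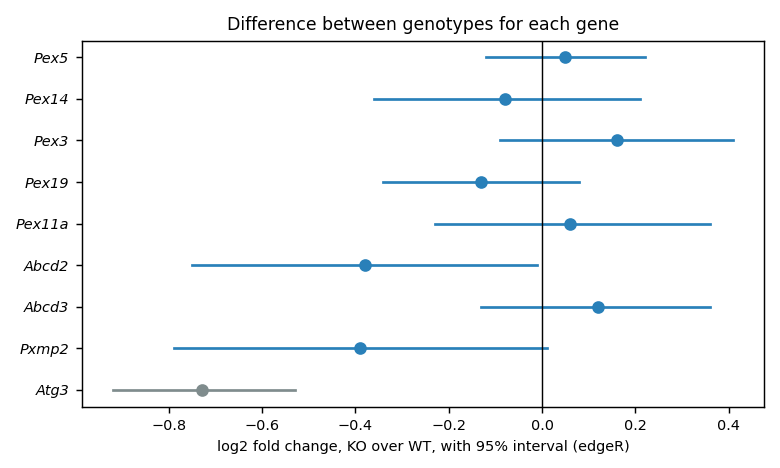
Log2 fold change (KO over WT) of each gene with its 95% interval, from edgeR over 4 KO and 4 WT libraries, with Atg3 in grey below. The intervals of Abcd2 and Pxmp2 reach furthest below 0 among the peroxisome genes and that of Pex5 is the narrowest.

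Levels were compared between genes on the deposited FPKM scale, which divides reads by exonic length and library total. Abcd2 stood first in both genotypes, with 94.0 ± 13.9 FPKM in KO and 121 ± 16.1 FPKM in WT fat, and Pex19 second, with 57.1 ± 2.65 and 61.9 ± 3.63 FPKM (SD, n = 4 each). No KO or WT library of Pex19 reached the lowest Abcd2 library of its genotype. Next in KO fat came Abcd3 (31.7 ± 2.27 FPKM), then Pex5 (25.6 ± 0.939), Pxmp2 (25.3 ± 3.22), Pex11a (23.4 ± 2.76) and Pex3 (16.6 ± 2.30), where from Pex5 on each gene's libraries overlapped those of the next. In WT fat Pxmp2 (32.6 ± 6.75 FPKM) and Abcd3 (28.9 ± 2.43) overlapped, and so did Pex5 (24.5 ± 1.02) and Pex11a (22.1 ± 2.42). Pex14 was lowest in both, with 9.03 ± 0.0705 FPKM in KO and 9.41 ± 1.47 FPKM in WT fat. Pxmp2 was the fifth in KO and the third in WT fat, and the order of the other genes did not change.

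Ratios between genes within a library do not depend on how libraries are scaled. The ratio of Abcd2 to Abcd3, per length, was 3.18, 2.91, 2.53 and 3.2 in KO libraries 1 to 4, against 3.97, 3.78, 4.00 and 5.05 in WT libraries 1 to 4. Every KO library was below every WT library. The log2 ratio differed by -0.50 (KO minus WT; two-sided exact permutation p = 0.0286, the smallest that 70 assignments allow, n = 4 each). This ratio is 1 of 28 between the 8 genes, all computed after the values had been seen, and adjusted over the 28 the permutation p was 0.1. Of the 28 ratios 8 did not overlap between genotypes (28.6%), and they share genes. Over all 109512600 pairs of tested genes 9.12% of ratios did not overlap, and 18.6% of those with Abcd2 did not. Within the 8 genes it was 4 of 7 for Abcd2, its ratios to Pex3, Pex11a, Pex14 and Abcd3, and 3 of 7 for Abcd3, against 7.35% of all ratios with Abcd3.

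The other ratios without overlap involve Pxmp2 or Pex19. Pex11a over Pxmp2 was 0.822 to 1.19 in KO and 0.598 to 0.770 in WT libraries, and Abcd3 over Pxmp2 was 1.11 to 1.56 in KO and 0.756 to 0.958 in WT libraries. Pex5 over Pex19 was 0.430 to 0.463 in KO and 0.370 to 0.423 in WT libraries, and Pex19 over Abcd3 was 1.63 to 1.99 in KO and 2.03 to 2.28 in WT libraries. These 4 had the same exact permutation p of 0.0286 and an adjusted value of 0.1. Abcd2 over Pxmp2 overlapped, with 3.12 to 4.54 in KO and 3.02 to 4.84 in WT libraries, and its log2 ratio differed by -0.01.

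The proportion of Plin1 to Pex11a, the neighbours shown above, also lay apart between the genotypes. Plin1 over Pex11a, per length, was 28.0, 24.5, 26.3 and 31.6 in KO libraries 1 to 4, against 33.1, 33.3, 34.0 and 41.8 in WT libraries 1 to 4, again without overlap. This ratio was chosen after its values were seen and is given without a test. Of all ratios with Pex11a as a partner 3.99% did not overlap, and the share for ratios with Plin1 was not computed. Plin1 had 1235 ± 207 CPM in KO and 1526 ± 302 CPM in WT fat (SD, n = 4 each; log2 fold change -0.31, adjusted p = 0.440). Wdr93, on the other side of Pex11a, had 9.54 ± 0.445 CPM in KO and 12.3 ± 3.06 CPM in WT fat (SD, n = 4 each; log2 fold change -0.36, adjusted p = 0.364).

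**Figure D3:**
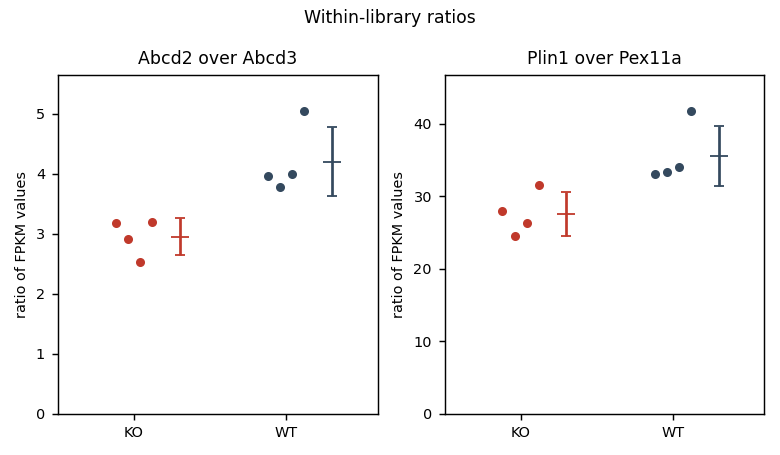
Ratio of FPKM values within each library for Abcd2 over Abcd3 (left) and Plin1 over Pex11a (right), with 1 point for each of 4 KO (red) and 4 WT (dark blue) libraries and the mean ± SD beside them. In both panels the KO points lie below the WT points, at 2.53 to 3.2 against 3.78 to 5.05 and at 24.5 to 31.6 against 33.1 to 41.8.

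On the TMM-scaled CPM, many of the genes shared their low and high libraries within each genotype. KO 3 was the lowest KO library for 6 of the 8 genes, all but Pex19 and Pxmp2. WT 3 was the highest WT library for 6, all but Pex14 and Abcd2, and WT 1 was the lowest for 6, all but Pex3 and Pex5. This depends in part on the scaling. The TMM factor was 1.053 in KO 3 and 1.06 in WT 1, the highest of each genotype. It was lowest in WT 3, at 0.9373. On the FPKM scale, which has no such factor, KO 3 was not the lowest for Pex3 or Pex14. There WT 1 was not the lowest for Pex11a, Pex14 or Pex19, and WT 3 was not the highest for Pex3 or Pex5. The adipocyte markers had the lowest KO sum in KO 3 (36364 CPM), the highest WT sum in WT 3 (52727 CPM) and the lowest WT sum in WT 1 (40393 CPM). Relative to its mean over all libraries, Abcd2 stood at -0.58 in KO 3 and 0.38 in WT 3 on the log2 scale, and Plin1 at -0.50 and 0.39. The part of adipocyte content in this spread was not tested.

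**Figure D4:**
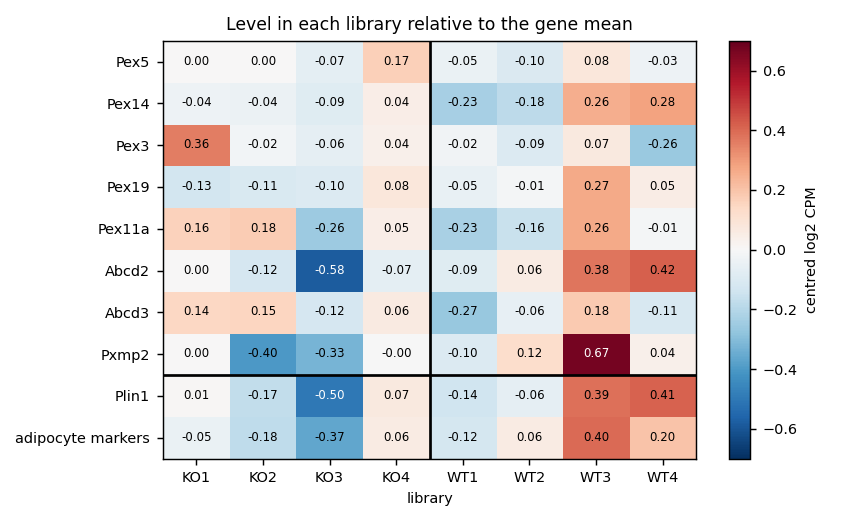
Log2 CPM of each gene in each library after subtracting the gene's mean over the 8 libraries (red above, blue below), with KO libraries on the left and Plin1 and the mean of 11 adipocyte markers in the lowest rows. KO 3 is blue and WT 3 red in every row of these TMM-scaled values.

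The genes whose library profiles came closest were looked up among 10157 named genes that averaged 10 CPM or more. Closeness was the root mean square difference of centred log2 CPM over the 8 libraries. It was not scaled to each gene's own spread, so genes that vary little between libraries tend to get small values. Nearest to Pex5 were Sars, a seryl-tRNA synthetase (0.0314), and Tbl3 (0.0443). Pex19 was nearest to Tceal8 (0.0379) and Hdhd2 (0.0465), and Pex14 to Rab34, a small GTPase (0.0401), and Camk1, a calmodulin-dependent kinase (0.049). For Abcd3 they were Ndufa4, a mitochondrial respiratory chain protein (0.0424), and Ssbp3 (0.0425). Pex11a was nearest to the mitochondrial genes Hspa9, a chaperone (0.0599), and Mtch2 (0.0601). Pex3 was nearest to Tnfaip8 (0.0507) and Anp32b (0.054), and Abcd2 to Stxbp6 (0.0658) and 9630013D21Rik (0.0724). Pxmp2 had the least close partners, Tmem120a, a nuclear envelope protein of adipocytes (0.0906), and S100a13, a calcium-binding protein (0.0939). None of these is on a peroxisome list used here, but those lists hold only 68 of the 14800 genes tested.

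The rest of the peroxisome was followed in 8 lists of 75 genes, of which 68 could be tested. Only Pecr was called (1 of 68, or 1.47%, against 0.405% of all genes), and 19.1% had an unadjusted p under 0.05, against 16.2% of all genes. The 19.1% include Slc27a2 and Acox2, which passed the filter on low counts only through their KO libraries. The median log2 fold change over the 68 was 0.04, against -0.01 over all genes. The other 12 peroxins had 0 calls (edgeR, 0 also at an unadjusted p under 0.05), a median of 0.06 and 11 positive values. Over all 14800 genes tested 7042 were positive. Pex26, the anchor of the Pex5 recycling complex, had 19.7 ± 1.28 CPM in KO and 17.6 ± 0.834 CPM in WT fat. Its partner ATPase Pex6 had 79.1 ± 8.61 CPM in KO and 71.7 ± 7.11 CPM in WT fat, and the ubiquitin ligase Pex2 39.4 ± 2.08 and 37.1 ± 0.606 CPM (SD, n = 4 each). The 3 tested division genes had a median of -0.08, with Fis1 at 0.13, Mff at -0.08 and Dnm1l, the dynamin that cuts the membrane, at -0.09 on the log2 scale.

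Pecr, the peroxisomal trans-2-enoyl-CoA reductase of fatty acid chain elongation, rose in KO fat. It had 30.2, 26.2, 22.4 and 25.4 CPM in KO libraries 1 to 4, against 13.9, 17.2, 17.1 and 15.1 CPM in WT libraries 1 to 4, without overlap. The fold change was 1.64, with a log2 value of 0.72 (SE 0.12, adjusted p = 0.0496). The sign held in all 19 alternatives, but 12 of them ended the call, with adjusted p-values between 5.45e-05 (DESeq2) and 0.184. Leaving out KO 2, KO 3, KO 4 or any WT library ended it (adjusted p from 0.0635 to 0.163). The 21 genes of peroxisomal oxidation had a median of 0.07, with 1 called higher, against 0.277% of all genes, and 0 lower. Nudt19, a coenzyme A hydrolase, had 35.6, 56.8, 45.7 and 38.2 CPM in KO libraries 1 to 4 and 26.1 to 34.5 CPM in WT libraries (adjusted p = 0.171). It was highest in KO 2 and KO 3, the libraries with the highest duct marker sums.

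Some oxidation and transport genes were high where the duct markers were high. Slc27a2, an acyl-CoA synthetase of very long chains, had 1.31, 17.0, 16.2 and 2.88 CPM in KO libraries 1 to 4 and at most 0.820 CPM in WT libraries (adjusted p = 0.0988). Acox2, the branched chain oxidase, had 1.23, 4.37, 3.75 and 1.44 CPM in KO libraries 1 to 4 and at most 0.328 CPM in WT libraries (adjusted p = 0.0609). With 12 and 11 reads over all WT libraries, Slc27a2 and Acox2 passed the filter on low counts only through their KO libraries. Their adjusted p-values are therefore descriptive only. Ddo, D-aspartate oxidase, had 11.0, 24.1, 26.8 and 8.60 CPM in KO libraries 1 to 4 and 6.81 to 11.0 CPM in WT libraries (adjusted p = 0.269). The duct markers summed to 34.2, 491, 499 and 44.9 CPM in the same KO libraries, and their part in these values was not tested.

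Catalase (Cat), which breaks down hydrogen peroxide, had 1365 ± 141 CPM in KO and 877 ± 140.2 CPM in WT fat (SD, n = 4 each; adjusted p = 0.101). Its KO libraries held 1157 to 1454 CPM and its WT libraries 699.7 to 1040.3 CPM, without overlap. Ephx2, the soluble epoxide hydrolase found in cytosol and peroxisomes, had 439 ± 38.2 CPM in KO and 354 ± 57.1 CPM in WT fat (SD, n = 4 each; adjusted p = 0.285). The 10 tested matrix enzymes other than those of oxidation had a median of 0.05 and 0 calls, against 0.405% of all genes (edgeR). Of these enzymes 3 (30.0%) had an unadjusted p under 0.05, against 16.2% of all genes.

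The 3 tested genes of ether lipid synthesis, whose first steps take place in peroxisomes, had negative log2 fold changes with a median of -0.17. Over all 14800 genes tested 7758 were negative. The list had 0 calls, against 0.405% of all genes (edgeR), and 1 gene (33.3%) at an unadjusted p under 0.05, against 16.2% of all genes. Agps, the alkyl transferase, had 44.6 ± 1.07 CPM in KO and 53.6 ± 3.30 CPM in WT fat (SD, n = 4 each), without overlap (log2 fold change -0.26, adjusted p = 0.135). Gnpat, the acyltransferase before it, had a log2 fold change of -0.17 (adjusted p = 0.573) and Far1, which supplies fatty alcohol, -0.14 (adjusted p = 0.438).

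The pexophagy list of 4 genes had 0 calls (edgeR, 1 at an unadjusted p under 0.05) and a median of 0.19. Sqstm1, the cargo receptor p62, had 514 ± 24.0 CPM in KO and 405 ± 43.9 CPM in WT fat (SD, n = 4 each; adjusted p = 0.159). Trim37, a ubiquitin ligase that stabilises Pex5 in human cells, had 23.6, 37.3, 35.6 and 28.3 CPM in KO libraries 1 to 4 and 25.7 to 27.4 CPM in WT libraries (adjusted p = 0.441). It too was highest in KO 2 and KO 3, and in KO 1 it was below every WT library. Usp30, a deubiquitinase of mitochondria and peroxisomes, had a log2 fold change of 0.13 (adjusted p = 0.568). Among 6 PPAR regulators there were also 0 calls (edgeR), with a median of -0.15. Of the regulators 1 (16.7%) had an unadjusted p under 0.05, near the 16.2% of all genes. Ppard had 51.5 ± 5.71 CPM in KO and 39.6 ± 4.68 CPM in WT fat (SD, n = 4 each; adjusted p = 0.159). Pparg, the adipocyte PPAR, had 206 ± 26.2 CPM in KO and 241 ± 18.8 CPM in WT fat (adjusted p = 0.336), and Ppara 3.43 ± 1.15 and 4.91 ± 1.02 CPM (SD, n = 4 each; adjusted p = 0.386).

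**Figure D5:**
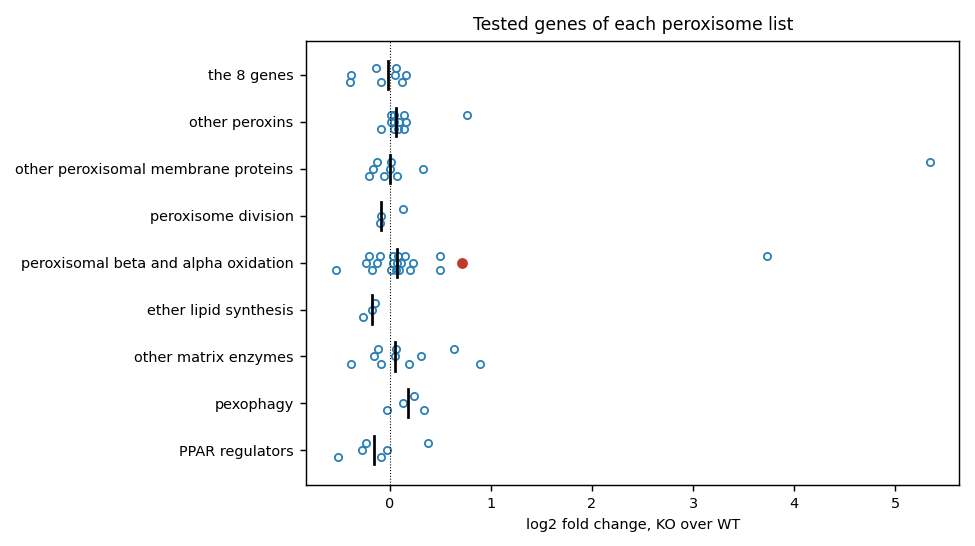
Log2 fold change (KO over WT) of every tested gene of the 8 genes and of each peroxisome list, with the list median as a black bar. The filled red point is Pecr (0.72), the single called gene, other points are blue, and those at 5.34 and 3.73 are Slc27a2 and Acox2. These passed the filter on low counts only through their KO libraries.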

How the data were processed

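Polyadenylated RNA of epididymal fat was sequenced as stranded libraries in single reads, per the labels' protocols. Novoalign 2.8.1, Picard and mm10 are named in the submitters' processing notes. The authors deposited 1 table of raw read counts and FPKM values, per the file headers. All 158499 FPKM values above 0 equal the count scaled by exonic length and library total within 0.1%. The sources used here name no counting program or annotation. The file's starts are counted from 0 and were raised by 1, which made 21270 of 32608 shared genes equal to GENCODE's mm10 models.

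The main test was the quasi-likelihood test of edgeR 4.0.16 (R 4.3.3) on the counts, after filterByExpr (minimum count 10; 14800 genes kept) and TMM scaling, with no covariate and Benjamini-Hochberg adjustment over all genes at 0.05. Standard errors and 95% intervals were derived from it, and the test was checked on simulated counts. Ratios were compared by two-sided exact permutation. Replicate libraries differed by more than sampling noise (lowest chi-square per gene 18.2), and p-values measure the spread between these mice. DESeq2 1.42.0 and limma-voom (limma 3.58.1), other scalings and filters, a replicate block and left-out libraries were alternatives. The genes and lists were chosen with earlier results of these data known. The rule for named genes took the 8 genes, Atg3, each list's 3 lowest p-values and its called genes, the gene starting nearest to each within 20000 bases, Plin1, and the 2 closest profiles; Dao and Pipox were named outside it. Pex11g and Adgre1 were found under the older names Pex11c and Emr1. The nearest gene models to Pex14, Pex19 and Abcd3 had at most 1 read and are not described; Pex5 and Abcd2 had none within that distance.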

Additional observations from a re-analysis of the deposited data

Results flagged for a closer look

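Pex19 in KO library 4, at 239.7 CPM, stood apart from the other KO libraries, which held 207 to 212 CPM. Its gap to the nearest of them was 0.855 of the KO range, above Dixon's 95% critical value for 4 samples. It was 1 of 18 groups tested (the 8 genes and Atg3 in each genotype), and chance flags about 1 in 20. Without KO 4 the log2 fold change of Pex19 was -0.18 (adjusted p = 0.404), against -0.13 with it. KO 4 was also the deepest library, with 21688464 reads, and had the highest hepatocyte marker sum, 88.4 CPM; the part of either was not tested.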

How the results depend on the processing

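None of the 8 genes was called in any of the 19 alternatives, where the lowest adjusted p was 0.168. Pex3, Pex19, Abcd2, Abcd3 and Pxmp2 kept their sign in all of them. With each library left out, the log2 fold change of Pex3 ran from 0.06 to 0.21, Pex19 from -0.18 to -0.06, Abcd2 from -0.46 to -0.26, Abcd3 from 0.05 to 0.21, Pxmp2 from -0.47 to -0.19, Pex5 from 0 to 0.09 and Pex11a from 0 to 0.17. The number of the 8 at an unadjusted p under 0.05 was 0 in 9 alternatives (among them RLE and upper quartile scaling and the replicate block), 1 in 6 and 2 in 4. The log2 fold changes of Pex5 and Pex11a were -0.02 and -0.02 without KO libraries 1 and 4, and that of Pex14 ran from -0.16 to 0.01 with each library left out, the positive value coming without WT 4. The cause was not tested. The log2 ratio of Abcd2 to Abcd3 ran from -0.55 to -0.41 with each library left out, and was -0.39 without KO 2 and 3 and -0.62 without KO 1 and 4, settings applied to it after the data had been seen. Over all genes the number called was 60, and 810 with DESeq2, 14 with the replicate block, 3 without KO libraries 2 and 3, 1469 without KO libraries 1 and 4, and 0 to 290 with each library left out (0 without KO 2, edgeR, with 1573 at an unadjusted p under 0.05). Of the peroxisome lists 1 gene was called, and 2 with library size scaling, 6 with DESeq2, 8 without KO 1 and 4, 0 to 5 with each library left out and 0 with RLE scaling, no filter, limma-voom, the replicate block or without KO 2 and 3. Atg3 had a log2 fold change of -0.73, and -0.77 without KO 2 and 3 (adjusted p = 0.0989) and -0.78 to -0.69 with each library left out (adjusted p from 0.0267 to 0.0745, and above 0.05 without KO 2, at 0.0745, WT 1, at 0.0543, or WT 4, at 0.0705). With the replicate block it was -0.73 (adjusted p = 0.111). Same-numbered KO and WT libraries deviated together with correlations of 0.184, -0.106, -0.254 and 0.0577, and 2 of 8 libraries correlated best with their own number. The labels state no pairing, and these correlations cannot exclude that same-numbered mice were littermates or were processed together. With 4 mice a genotype, the 95% intervals of the 8 genes reach 0.580-fold at the low end and 1.33-fold at the high end.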

Other observations

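A pair of peroxisomal amino acid oxidases did not pass the filter on low counts with all 8 libraries and are given as values; they were named outside the rule, after their values were seen. Dao, D-amino acid oxidase, had 0.462, 58.8, 57.4 and 3.27 CPM in KO libraries 1 to 4 and at most 0.246 CPM in WT libraries. Pipox, which oxidises pipecolic acid and sarcosine, had 0.693, 37.9, 38.7 and 2.55 CPM in KO libraries 1 to 4 and at most 0.393 CPM in WT libraries. The duct epithelium markers summed to 34.2, 491, 499 and 44.9 CPM in the same KO libraries and to at most 20.8 CPM in WT libraries, and their part in these values was not tested.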
